A study of Homo sapiens with 12 samples.

Results

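The genes described here are 9 Polycomb repressor genes, EZH1, EZH2, EED, SUZ12, RING1, BMI1, CBX2, CBX7 and CBX8, whose rows were taken by gene symbol from a table of 52889 gene entries. All 9 were found, each in 1 entry, and all 9 were among the 27579 genes with enough reads to be tested. The values are read counts from ATAC-Seq, in which the Tn5 transposase cuts accessible DNA in nuclei, so that a gene in open chromatin collects more reads.

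HEK293T cells, which derive from human embryonic kidney, were used throughout, in 4 groups of 3 biological replicates. Mock cells carried the empty vector pSBTet-GP, and neither the labels nor the study's text give the day of their harvest. Cells of day 0 (d0) came from a stable line, selected with puromycin, that expressed MLL-AF4 constitutively. Cells of day 3 (d3) carried AF4-MLL in addition, in a doxycycline-inducible vector that had been transfected transiently, and received doxycycline (1 µg/ml, 48 h) and, by the study's methods, blasticidin over the same time. Cells of day 28 (d28) had the same genotype label as d0, and the study's methods place them 25 days after AF4-MLL was shut down. MLL-AF4 was thus present in d0, d3 and d28 cells and absent from Mock cells. MLL-AF4 and AF4-MLL are the reciprocal fusion proteins of the t(4;11) translocation of acute leukemia, expressed here in a kidney line and not in blood cells. Because the line, the vector, the transfection, the antibiotics and the days in culture changed together between some groups, their parts in a difference cannot be told apart.

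Polycomb proteins keep developmental genes silent. Polycomb repressive complex 2 (PRC2) methylates lysine 27 of histone H3 through its catalytic subunit EZH2 or EZH1, which needs EED and SUZ12 for activity. Polycomb repressive complex 1 (PRC1) ubiquitinates histone H2A through RING1 or its paralog RNF2 together with a PCGF protein such as BMI1, and its canonical form binds the methylated histone through a CBX subunit such as CBX2, CBX7 or CBX8. The complexes oppose the trithorax group, to which MLL (KMT2A) belongs.

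Total counts lay between 353430 and 501324 in Mock, 648466 and 715327 in d0, 930067 and 1186209 in d3, and 1058754 and 3539937 in d28 libraries. Mitochondrially encoded genes took 26.44% to 27.04% of the counts in Mock, 42.0% to 45.6% in d0, 32.8% to 44.1% in d3 and 63.6% to 68.5% in d28. Counts were therefore compared after TMM scaling, as normalised read counts, and the raw counts of the members ranged from 2 to 89 per library. KMT2A, part of which both fusion genes carry, had 27.1 to 31.4 normalised read counts in Mock and 67.5 to 89.7 in d28, with a log2 fold change of 1.40 (edgeR, adjusted p = 9.63e-10). Against Mock, KMT2A had 0.45 in d0 (edgeR adjusted p = 0.577) and 1.06 in d3 (edgeR adjusted p = 0.000212). In d28 against d0, which share a genotype label, KMT2A had 0.96 (edgeR adjusted p = 2.94e-05). AFF1, the source of the AF4 part, had 0.29 in d28 against Mock (edgeR adjusted p = 0.523). Whether reads of the transgenes contributed to these counts was not tested. Of 8 genes known from HEK293T cells (kidney and neural genes) and 8 blood genes, every one had reads, with median levels per kb of gene span of 0.712 and 0.364 and overlapping ranges, so these lists do not separate the cell type sharply in gene-wide ATAC-Seq counts. The summed normalised count of the kidney and neural genes lay between 150 and 201 in all libraries and that of the blood genes between 55.4 and 87.2.

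The members lie on 6 chromosomes and differ widely in length (coordinates of RefSeq, GRCh38.p14). The genes of PRC2 are long. EZH2 (ENSG00000106462) spans 76.9 kb at chr7:148807383-148884291, SUZ12 (ENSG00000178691) 64.0 kb at chr17:31937007-32001038, EZH1 (ENSG00000108799) 44.8 kb at chr17:42700275-42745040 and EED (ENSG00000074266) 42.9 kb at chr11:86244753-86287615. The genes of PRC1 are shorter. RING1 (ENSG00000204227) spans 4.22 kb at chr6:33208500-33212716, BMI1 (ENSG00000168283) 10.6 kb at chr10:22321099-22331706 and CBX7 (ENSG00000100307) 21.9 kb at chr22:39130772-39152680. CBX2 (ENSG00000173894) at chr17:79777311-79787983 and CBX8 (ENSG00000141570) at chr17:79792132-79797077 are direct neighbours, 4149 bp apart. The counts of a gene do not separate its promoter, exons and introns.

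RefSeq start sites with 250 bases before and 50 bases after them were found for 7 of the 9 members, without CBX2 and CBX8. They are shown for BMI1 and CBX7, which were higher in every d3 than in every d0 library, and for EZH2 and EED, which were not, with CpG dinucleotides in capitals.
BMI1 (chr10:22320849-22321148, plus strand): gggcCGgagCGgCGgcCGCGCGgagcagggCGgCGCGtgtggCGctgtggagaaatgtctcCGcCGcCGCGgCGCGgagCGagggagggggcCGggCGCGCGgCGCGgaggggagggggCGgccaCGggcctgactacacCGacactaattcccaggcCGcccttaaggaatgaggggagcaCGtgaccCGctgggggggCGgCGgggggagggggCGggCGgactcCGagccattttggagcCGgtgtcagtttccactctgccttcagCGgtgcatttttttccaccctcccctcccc
CBX7 (chr22:39152631-39152930, minus strand): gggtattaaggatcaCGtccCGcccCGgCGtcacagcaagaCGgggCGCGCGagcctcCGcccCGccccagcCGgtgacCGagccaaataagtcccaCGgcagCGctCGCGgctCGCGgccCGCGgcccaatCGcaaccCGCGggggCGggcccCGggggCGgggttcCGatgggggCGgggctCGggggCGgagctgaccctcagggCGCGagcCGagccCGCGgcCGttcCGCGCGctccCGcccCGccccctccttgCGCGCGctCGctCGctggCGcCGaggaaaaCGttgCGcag
EZH2 (chr7:148884242-148884541, minus strand): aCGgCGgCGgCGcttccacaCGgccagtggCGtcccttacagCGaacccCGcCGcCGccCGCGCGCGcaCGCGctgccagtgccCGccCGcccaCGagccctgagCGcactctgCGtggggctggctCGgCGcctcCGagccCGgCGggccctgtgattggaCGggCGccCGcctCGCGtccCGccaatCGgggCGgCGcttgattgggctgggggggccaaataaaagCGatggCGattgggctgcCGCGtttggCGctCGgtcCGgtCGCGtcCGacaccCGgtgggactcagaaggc
EED (chr11:86244503-86244802, plus strand): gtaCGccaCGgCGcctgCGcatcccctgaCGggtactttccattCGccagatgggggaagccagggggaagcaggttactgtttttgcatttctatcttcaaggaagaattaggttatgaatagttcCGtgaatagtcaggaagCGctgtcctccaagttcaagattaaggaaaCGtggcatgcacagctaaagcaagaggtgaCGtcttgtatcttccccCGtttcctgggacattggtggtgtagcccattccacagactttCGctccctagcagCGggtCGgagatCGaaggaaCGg
The CpG counts of PRC1 and PRC2 genes overlapped in these windows. The BMI1 window holds 36 CpG dinucleotides and the CBX7 window 50, more than in 87.3% and 98.7% of 35114 RefSeq windows of this length, whose median is 14. The EZH2 window holds 46 and the EED window 16. EZH1, SUZ12 and RING1 hold 30, 40 and 41. The CCAAT box (letters CCAAT, read on both strands) occurs 4 times in the EZH2 window, 1 time each in those of EED, SUZ12 and CBX7, and not in those of BMI1, EZH1 and RING1, whereas 34.6% of all windows hold it. The E2F motif TTCCCGC, which does not overlap the CCAAT box in its letters, occurs in the SUZ12 window alone among the 7, and in 6.55% of all windows.

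CBX8 had the highest level per length of the 9 genes in every group, and EZH1, EZH2 and SUZ12 had the 3 lowest. Over the 12 libraries CBX8 had a mean of 8.97 normalised read counts per kb of gene span, above 95.7% of the tested genes with a known span. BMI1 followed with 2.46, RING1 with 2.27, CBX2 with 1.69 and EED with 0.985 normalised read counts per kb. CBX7 (0.637), EZH1 (0.377), SUZ12 (0.273) and EZH2 (0.268) stood at the end of the order on the same scale. The replicates of CBX8 did not overlap those of the next gene in any group. RING1 and CBX2 overlapped in Mock, d3 and d28, where they stood next to each other, and EZH1 and SUZ12 overlapped in Mock, d0 and d3. Long genes with a small open region are low on this scale by construction, and levels per kb of exon were not computed.

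**Figure D1:**
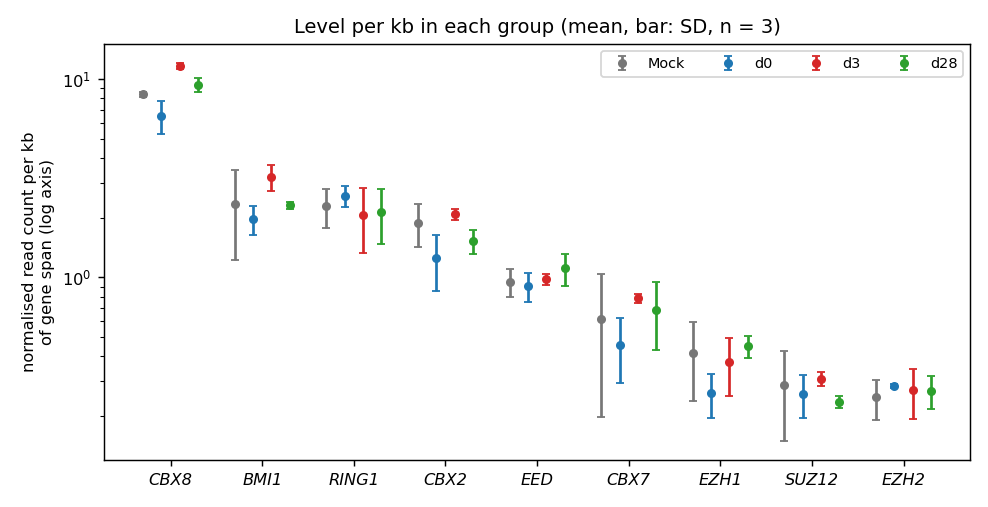
Mean normalised read count per kb of gene span (log axis) of the 9 genes in Mock, d0, d3 and d28 cells, with SD as bars and n = 3 per group. CBX8 stands above the other genes in all 4 groups, with a mean over the 12 libraries of 8.97 per kb, and EZH2 is at 0.268 per kb.

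The comparison of d3 with d0 asks what was different 48 h after AF4-MLL was added to cells that already had MLL-AF4. CBX8 was the 1 member of 9 that rose at an adjusted p below 0.05, by a factor of 1.78, while 0.91% of the tested genes were called in either direction. BMI1, CBX2 and CBX7, the other PRC1 members apart from RING1, had fold changes of 1.63 to 1.69 that did not pass the adjusted test. The PRC2 members had log2 fold changes between -0.07 and 0.49, none of which passed it.

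CBX8 binds the methylated histone tail as a subunit of PRC1 and is known to bind AF9, a fusion partner of MLL. Its normalised read counts were 37.3, 25.5 and 33.7 in d0 replicates 1 to 3 and 58.5, 59.1 and 55.5 in d3 replicates 1 to 3. In Mock cells they were 41.9, 40.0 and 42.5, and in d28 cells 47.0, 42.2 and 49.5. Every d3 library was thus above every library of the other groups, and every d0 library was below them. From a mean of 32.2 ± 6.04 (SD, n = 3) in d0 to 57.7 ± 1.93 (SD, n = 3) in d3, the log2 fold change was 0.83 (SE 0.20, 95% interval 0.44 to 1.22, edgeR quasi-likelihood test, adjusted p = 0.0094).

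The call rested on the test and on 1 library of d0. With DESeq2 the log2 fold change of CBX8 was 0.79 with an adjusted p of 0.133, and without d0 replicate 2, the lowest of the 12, it was 0.70 with an adjusted p of 0.142 in edgeR. Over all 15 alternatives it lay between 0.70 and 0.96, and 13 of them kept the call. The raw counts were 74 in the d0 and 215 in the d3 libraries together, and counting error alone gave an SE of 0.19, close to the fitted SE of 0.20. The d3 libraries were deeper than the d0 libraries, with 591071 to 662727 against 352673 to 398640 counts outside mitochondrially encoded genes, and the part of depth in the result was not tested. In bulk nuclei, more nuclei with an open gene and more cuts per nucleus cannot be told apart.

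BMI1, the PCGF protein that stimulates the ubiquitin ligase of PRC1, had 24.9, 18.4 and 19.4 normalised read counts in d0 and 37.7, 28.2 and 36.5 in d3. Its log2 fold change was 0.70 (SE 0.25, 95% interval 0.21 to 1.19, edgeR adjusted p = 0.175). Mock cells had 19.5, 16.8 and 38.8, so that Mock replicate 3 lay above all d3 libraries, whereas the d28 values of 24.8, 25.3 and 23.3 were close together.

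CBX2, a subunit that compacts chromatin, had 8.71, 17.0 and 14.2 normalised read counts in d0 and 23.1, 23.1 and 20.6 in d3. Its log2 fold change was 0.75 (SE 0.31, 95% interval 0.14 to 1.36, edgeR adjusted p = 0.274). The groups did not overlap, but the value of d0 replicate 1 rested on 7 raw counts. Mock cells had 18.0, 16.8 and 25.8 and d28 cells 15.3, 14.8 and 18.9 normalised read counts, and their means of 20.2 and 16.3 lay between those of d0 (13.3) and d3 (22.3).

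CBX7, the CBX protein best known from embryonic stem cells, had 13.7, 9.93 and 6.47 normalised read counts in d0 and 16.2, 18.0 and 17.4 in d3. The log2 fold change was 0.76 (SE 0.35, 95% interval 0.07 to 1.45, edgeR adjusted p = 0.368). Mock libraries ranged from 3.69 to 21.9 and d28 libraries from 8.74 to 19.5 normalised read counts, so CBX7 varied more between replicates of these groups than between the means of d0 and d3.

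RING1, the ubiquitin ligase subunit, went with none of these. It had 12.4, 9.93 and 10.4 normalised read counts in d0 and 10.8, 5.14 and 10.3 in d3, with a log2 fold change of -0.31 (95% interval -1.10 to 0.49). With 5 to 17 raw counts per library it had the lowest mean count of the members, and changes within that interval were not detectable at this depth.

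Counted without adjustment for the number of genes, 4 of 9 members had a p below 0.05 in d3 against d0, compared with 11.4% of the tested genes. These were BMI1, CBX2, CBX7 and CBX8, and all 4 were higher in d3. The same 4 members had groups that did not overlap, as had 17.1% of the tested genes. The median log2 fold change of the 9 members was 0.49, beside 0.02 over all tested genes. Values above 0 were found for 7 of 9 members and for 14250 of the 27579 tested genes. Of the tested genes, 13826 had a mean of 10 to 80 normalised read counts, as had the members apart from RING1. Among these 13826 genes the median was 0.06, and 1329 were higher and 768 lower in d3 at an unadjusted p below 0.05.

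**Figure D2:**
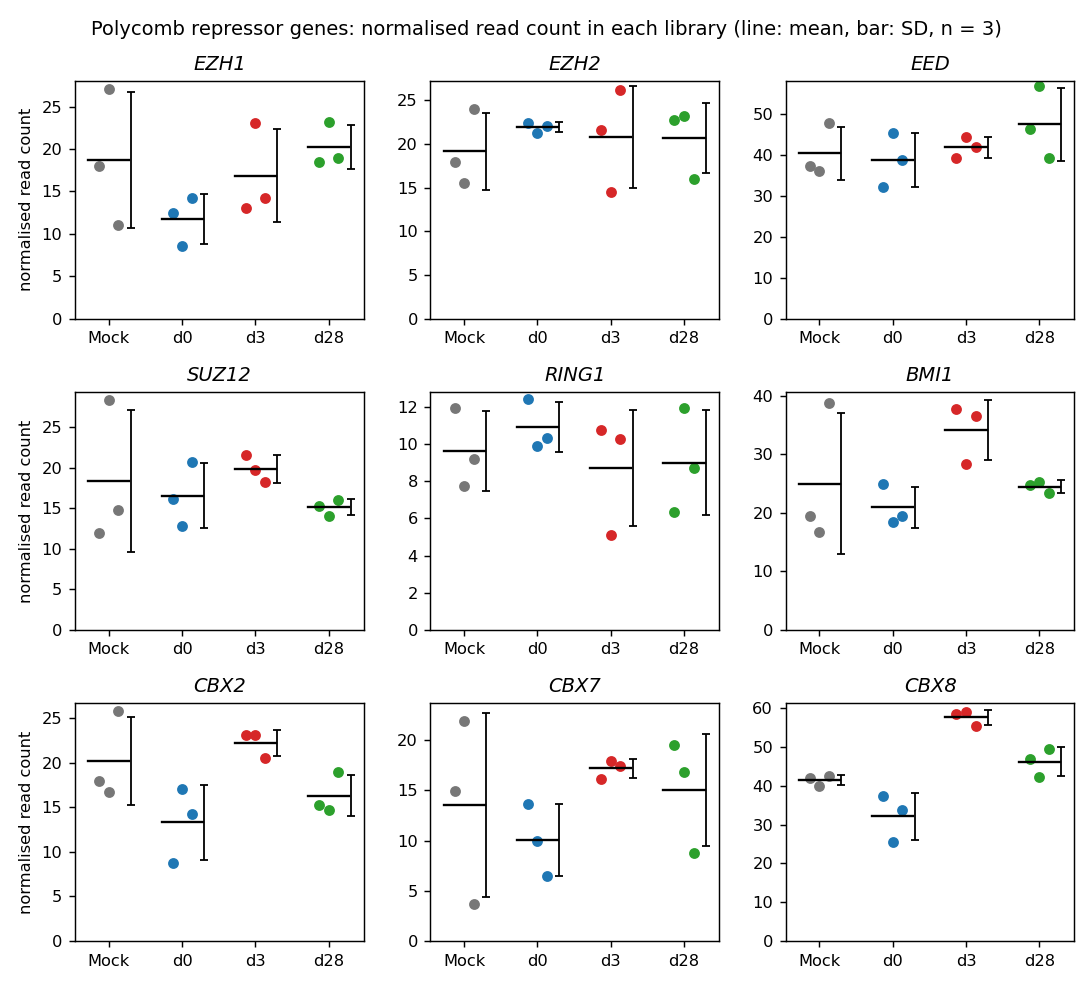
Normalised read count of each member in the 12 libraries, by group (points: libraries, line: mean, bar: SD, n = 3), each panel starting at 0. CBX8 lies between 55.5 and 59.1 in d3 and between 25.5 and 37.3 in d0, and BMI1, CBX2 and CBX7 also have no overlap between d3 and d0.

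The PRC2 members showed no such separation. EZH2, the catalytic subunit of dividing cells, had 22.4, 21.3 and 22.0 normalised read counts in d0 and 21.6, 14.6 and 26.2 in d3, with a log2 fold change of -0.07 (95% interval -0.61 to 0.47). EED, which binds the methyl mark that PRC2 makes, had 32.3, 45.4 and 38.8 in d0 and 39.3, 44.5 and 42.0 in d3, with a log2 fold change of 0.12 (95% interval -0.28 to 0.51). The values of d3 lay within the range of d0 for EED and around it for EZH2.

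SUZ12, the scaffold of PRC2, had 16.2, 12.8 and 20.7 normalised read counts in d0 and 21.6, 19.7 and 18.2 in d3, a log2 fold change of 0.25 (95% interval -0.34 to 0.84). EZH1, the catalytic subunit that prevails in resting cells, had 12.4, 8.51 and 14.2 in d0 and 13.1, 23.1 and 14.3 in d3, a log2 fold change of 0.49 (95% interval -0.17 to 1.15) that was 0.21 without d3 replicate 2 and 0.32 without d0 replicate 2. Both groups overlapped for either gene. A rise of EZH2 or EED as large as the 0.83 of CBX8 lay outside their intervals, whereas for SUZ12 and EZH1 it did not.

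The summed normalised read count of the 5 PRC1 members was 80.8 to 97.0 in d0, 134 to 146 in d3, 109 to 113 in d28 and 103 to 120 in Mock libraries. For the 4 PRC2 members the sum was 83.4 to 95.8 in d0, 95.5 to 102 in d3, 90.3 to 117 in d28 and 85.3 to 107 in Mock. The d3 libraries stood above all others in the sum of the PRC1 members, most of which came from CBX8 and BMI1, whereas all groups overlapped in the sum of the PRC2 members.

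In d28 against d3, the comparison over the 25 days without AF4-MLL, 0 of 9 members passed the adjusted test in edgeR or DESeq2, and edgeR called 0.37% of the tested genes. At an unadjusted p below 0.05 there were 2 of 9 members, against 8.83% of the tested genes. BMI1 had a log2 fold change of -0.47 (95% interval -0.88 to -0.06, edgeR adjusted p = 0.474) and CBX8 one of -0.33 (95% interval -0.65 to -0.02, edgeR adjusted p = 0.538). The d28 libraries lay below all d3 libraries for 4 of 9 members, BMI1, CBX2, CBX8 and SUZ12, while 14.3% of the tested genes had no overlap in either direction. CBX7 did not follow them, with a log2 fold change of -0.05 (95% interval -0.59 to 0.48).

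In d28 against d0, cells with the same genotype label, 0 of 9 members passed the adjusted test in edgeR, which called 1.35% of the tested genes. At an unadjusted p below 0.05 there were 3 of 9 members, against 12.6% of the tested genes, and all 3 were higher in d28. EZH1 had 18.5, 23.2 and 18.9 normalised read counts in d28, above the 12.4, 8.51 and 14.2 of d0, with a log2 fold change of 0.77 (95% interval 0.14 to 1.40, edgeR adjusted p = 0.261). CBX8 had a log2 fold change of 0.49 (95% interval 0.09 to 0.90, edgeR adjusted p = 0.256), also without overlap, and CBX7 one of 0.71 with overlapping groups. The libraries of d0 serve in both comparisons, so the positive values of CBX8 in d3 and in d28 are not independent of each other. The share of tested genes without overlap was computed only for d3 against d0 and for d28 against d3. Separations of libraries in d28 against d0 and in the comparisons with Mock are therefore descriptions.

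Against Mock cells no member was called in edgeR at any day. DESeq2 called none of those to which it gave an adjusted p, 3 of 9 members in d0, 5 in d3 and 7 in d28 against Mock and 2 in d28 against d0, and left the others, which have low counts, without one. In d0 against Mock 0 of 9 members passed, where 0.609% of the tested genes were called in edgeR, and 0 of 9 had an unadjusted p below 0.05, compared with 9.65% of the tested genes. EZH1 had a log2 fold change of -0.72 (95% interval -1.44 to 0.00, edgeR adjusted p = 0.519), which was -0.31 without Mock replicate 2. Values below 0 were found for 7 of 9 members and for 13818 of the 27579 tested genes. CBX8 was below Mock in all d0 libraries, with a log2 fold change of -0.35 (95% interval -0.82 to 0.12).

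In d3 against Mock 0 of 9 members passed the adjusted test, beside 1.27% of the tested genes, and 2 of 9 had an unadjusted p below 0.05, beside 11.3% of the tested genes. CBX8 had a log2 fold change of 0.48 (95% interval 0.10 to 0.86, edgeR adjusted p = 0.278) and BMI1 one of 0.53 (95% interval 0.03 to 1.02, edgeR adjusted p = 0.4). The d3 libraries were all above the Mock libraries for CBX8 and overlapped them for BMI1, whose log2 fold change was 0.31 without Mock replicate 2 and 0.94 without Mock replicate 3. In d28 against Mock 0 of 9 members passed either threshold, against 1.45% of the tested genes with adjustment and 12.5% without, and the log2 fold changes lay between -0.34 for SUZ12 and 0.29 for EED.

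**Figure D3:**
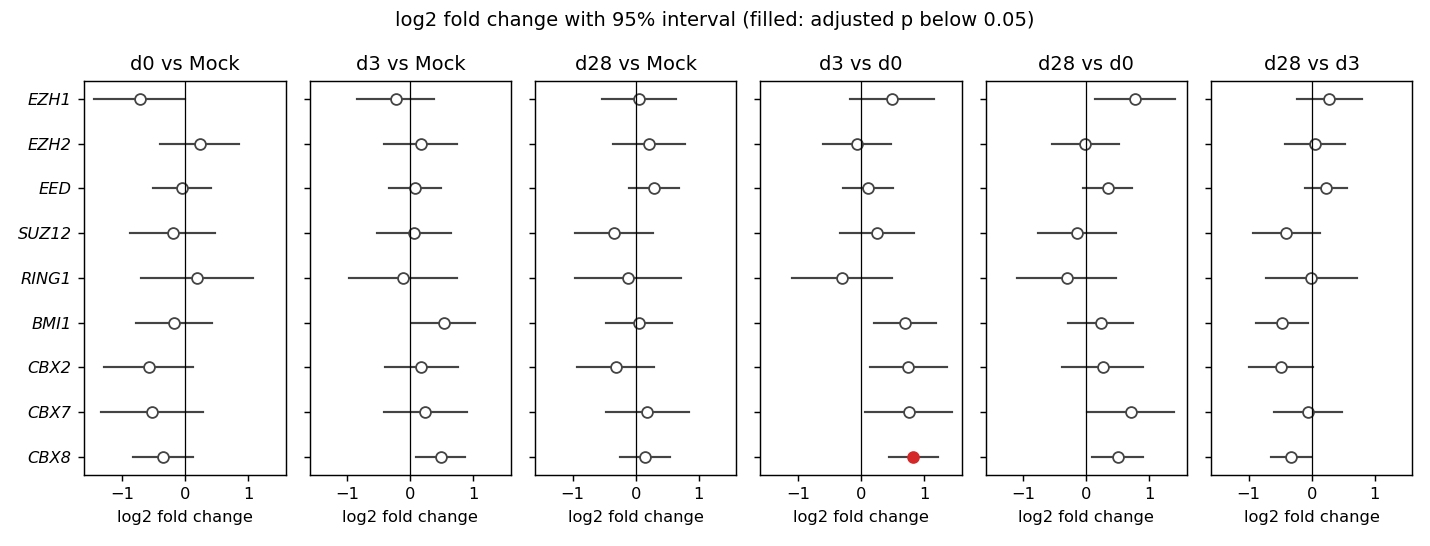
log2 fold change of each member (points) with its 95% interval (lines) in the 6 comparisons, first group over second, filled where the edgeR adjusted p was below 0.05. CBX8 in d3 against d0 (0.83) is the filled point.

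Ratios of paralogs within a library do not depend on how libraries are scaled. The EZH2 to EZH1 ratio was 1.76, 2.38 and 1.52 in the d0 libraries and 1.23, 1.00 and 0.852 in the d28 libraries, so that EZH2 had more reads than EZH1 in all of d0 and about as many in d28. The difference of the mean log2 ratios, d28 minus d0, was -0.87, with p = 0.1 in a two-sided exact permutation test, the smallest p that 3 against 3 can give, and an adjusted p of 1 over 18 such tests. The EZH2 to EZH1 ratio varied more in Mock (1.00, 0.581 and 2.08) and d3 libraries (1.63, 0.636 and 1.81), with an SD of the log2 ratio of 0.92 and 0.83 against 0.33 in d0 and 0.26 in d28.

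The CBX8 to CBX7 ratio was 3.56, 3.23 and 3.13 in d3 and 2.65, 2.47 and 4.82 in d0. Its mean log2 ratio differed by 0.06 between d3 and d0 (two-sided exact permutation p = 1). The CBX2 to CBX7 ratio differed by -0.03 on the log2 scale (two-sided exact permutation p = 1). The SD of the log2 ratio was 0.10 in d3 and 0.53 in d0 for CBX8 to CBX7, and 0.13 and 0.89 for CBX2 to CBX7, so a moderate shift between these CBX genes would not have been seen. None of the 18 differences reached an adjusted p below 1.

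The genes next to the members were examined for stretches of chromosome that moved as a whole. Around CBX8, the 20 nearest tested genes had a median log2 fold change of 0.26 in d3 against d0, 13 of 20 were above 0 and 2 of 20 were above CBX8. Around CBX7 the median of the neighbours was 0.32, with 18 of 20 above 0, and around BMI1 it was 0.19, with 13 of 20 above 0. All of these medians were above the 0.02 of all tested genes, and the part of the surroundings in the members' values was not tested.

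Around EZH1 the neighbours had a median of 0.48, about the same as the 0.49 of EZH1 itself. In d3 against d0, 4 of these 20 were called, beside 0.91% of the tested genes. With 5 genes on each side the median was 0.31 and 1 of 10 was called. RING1 stood below its surroundings, with -0.31 beside a median of 0.19 and 18 of 20 neighbours above it. For EED the neighbours had a median of -0.16, for EZH2 of 0.04 and for SUZ12 of 0.28.

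Short genes had somewhat higher fold changes than long genes in d3 against d0. Among genes with at least 10 normalised read counts, those in the lowest 20% by span, up to 9.70 kb, had a median log2 fold change of 0.14 over 2478 genes, and those in the highest 20%, above 102 kb, one of -0.05. CBX8 and RING1 are of the shortest class by their spans and lay at 0.83 and -0.31. In 5 classes by CpG count of the RefSeq windows the medians lay between 0.03 and 0.07.

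Some entries share sequence or position with a member, and reads of near copies can be split between them. SUZ12P1, a partial pseudogene copy of SUZ12, had 241 raw counts in all and a log2 fold change of 0.68 in d3 against d0 (edgeR adjusted p = 0.343). How many reads were split between SUZ12 and SUZ12P1 was not measured, so the counts of SUZ12 are uncertain. EZH2P1 had 2 and BMI1P1 6 raw counts over the 12 libraries, too few to be tested. COMMD3 ends 793 bp before BMI1, and RefSeq lists a read-through transcript over both. COMMD3 had a log2 fold change of 0.31 in d3 against d0 (edgeR adjusted p = 0.682), beside the 0.70 of BMI1.

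The 3 genes whose log2 normalised counts followed CBX8 most closely over the 12 libraries were CYHR1 (Pearson r = 0.93), AC114271.1 (0.92) and RAD51D (0.92), out of 8329 genes with a mean of at least 20. The 12 libraries share their depth and group structure, and these values are descriptions. Among the members, BMI1 had an r of 0.66 with CBX8, CBX2 0.49, EZH1 0.45 and CBX7 0.36, whereas EZH2 had -0.17 and RING1 -0.36.

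A further 41 Polycomb genes, the other subunits of PRC2 and PRC1, the PR-DUB deubiquitinase genes and the H3K27 demethylases, were all tested. In d3 against d0, 0 of 41 rose and 1 of 41 fell at an adjusted p below 0.05, beside 0.91% of the tested genes. At an unadjusted p below 0.05, 6 of 41 were higher and 2 lower in d3, beside 11.4% of the tested genes. Values above 0 were found for 30 of 41 and for 14250 of the 27579 tested genes. The median log2 fold change of the 41 was 0.11, beside the 0.49 of the 9 members. It was 0.06 for the 9 other canonical PRC1 genes, 6 above and 3 below 0, and 0.16 for the 7 PRC2 accessory genes. SCMH1, a canonical PRC1 gene, was lower in every d3 than in every d0 library (-0.82, edgeR adjusted p = 0.321), and RNF2 was at -0.40 (edgeR adjusted p = 0.556). Of the same 9 genes, PCGF2 was at 0.93 (edgeR adjusted p = 0.125) and CBX6 at 0.35 (edgeR adjusted p = 0.496). Both were higher in every d3 than in every d0 library. The higher values of most PRC1 members were thus shared by some of the other canonical PRC1 genes and not by others. The 1 gene called was KDM6B, a demethylase that removes the mark of PRC2. It had 46.0, 42.5 and 42.7 normalised read counts in d0 and 23.1, 23.1 and 28.5 in d3, a log2 fold change of -0.81 (SE 0.22, edgeR adjusted p = 0.0341). The call was kept in 6 of 15 alternatives. Of the 9 alternatives with all libraries, 5 kept it, and DESeq2 (adjusted p = 0.131), library sizes only and no filter were among those that lost it. It was also lost when d0 replicate 1, 2 or 3 or d3 replicate 1 or 2 was left out, with log2 fold changes of -0.76, -0.83, -0.82, -0.77 and -0.76.

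KDM6B was also the 1 of 41 called in d3 against Mock, where 1.27% of the tested genes were called. It fell from 47.9, 40.0 and 59.1 in Mock to the same d3 values, with a log2 fold change of -0.94 (edgeR adjusted p = 0.00467). This call was lost only without Mock replicate 3 (-0.79, adjusted p = 0.122) among 15 alternatives. The 20 genes around KDM6B had a median of -0.34 in d3 against d0 and -0.31 in d3 against Mock, and the part of its surroundings was not tested. KDM6A, the other demethylase, had log2 fold changes of 0.08 in d3 against d0 and 0.42 in d3 against Mock, which did not pass the test. Without adjustment, 4 of 41 genes were higher and 1 lower in d3 than in Mock at a p below 0.05, beside 11.3% of the tested genes.

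PCGF2, the closest paralog of BMI1, had 13.7, 14.2 and 10.4 normalised read counts in d0 and 28.5, 22.3 and 22.2 in d3, without overlap. Its log2 fold change of 0.93 did not pass the test (edgeR adjusted p = 0.125), nor did the 0.85 of PHF1, an accessory subunit of PRC2 (edgeR adjusted p = 0.0907). PCGF2 was back at 13.7, 14.8 and 17.5 normalised read counts in d28, with a log2 fold change of -0.72 against d3 (edgeR adjusted p = 0.298). In d28 against d3, 0 of 41 were called in edgeR, beside 0.37% of the tested genes. At an unadjusted p below 0.05 there were 3 of 41, beside 8.83% of the tested genes. The smallest p belonged to RBBP4 (log2 fold change 0.49, edgeR adjusted p = 0.116).

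In d28 against d0, 2 of 41 genes rose and 0 fell, beside 1.35% of the tested genes called in either direction. Without adjustment, 6 of 41 were higher and 2 lower at a p below 0.05, beside 12.6% of the tested genes. RBBP4, a histone-binding subunit that PRC2 shares with other complexes, had 78.1, 71.0 and 101.9 normalised read counts in d28 and 42.3, 46.8 and 57.0 in d0, a log2 fold change of 0.72 (edgeR adjusted p = 0.00425). It kept the call in 13 of 15 alternatives and lost it without d0 replicate 1 (0.64, adjusted p = 0.0888) and with library sizes only. MGA, a subunit of a variant PRC1, had 56.5, 50.6 and 68.4 in d28 and 26.1, 46.8 and 28.5 in d0, a log2 fold change of 0.76 (edgeR adjusted p = 0.0156), kept in 10 of 15 alternatives. The loss of d0 replicate 1 or 3 or of d28 replicate 1 or 3 ended this call, with log2 fold changes of 0.62, 0.67, 0.77 and 0.69. The 20 genes around MGA had a median of 0.75 in d28 against d0, with 19 of 20 above 0 and 9 of 20 above MGA, so that MGA did not stand out from its stretch of chromosome. Around RBBP4 the median was 0.30, with 0 of 20 above RBBP4.

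Against Mock cells, 2 of 41 genes rose in d28 and 0 fell, beside 1.45% of the tested genes called in either direction. Without adjustment, 5 of 41 were higher and 1 lower in d28 at a p below 0.05, beside 12.5% of the tested genes. In d0, 0 of 41 were called in edgeR, beside 0.609% of the tested genes. There, 1 of 41 had an unadjusted p below 0.05, beside 9.65% of the tested genes. MGA had a log2 fold change of 0.71 in d28 against Mock (edgeR adjusted p = 0.0414) and ASXL3, a subunit of PR-DUB, one of 0.86 (edgeR adjusted p = 0.0223). Both calls were lost with DESeq2 (adjusted p = 0.15 and 0.136). Of 6 fits that left out 1 library each, MGA kept its call only in that without d28 replicate 2, with 0.64 to 0.81 over the others. ASXL3 kept it in 3 of 6, and was at 0.63 (adjusted p = 0.34) without Mock replicate 2 and at 0.83 and 0.85 without Mock replicate 3 or d28 replicate 2.  In d28 against Mock the 20 genes around MGA had a median of 0.59, with 19 of 20 above 0 and 7 of 20 above MGA, and those around ASXL3 one of 0.29, with 2 of 20 above ASXL3. The Mock libraries serve in all of these comparisons.

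The remaining genes with the smallest p-values of a comparison did not pass the adjusted test. Against Mock these were, in d0, ASXL3 (log2 fold change 0.61), the PRC1 subunit SCMH1 (0.79) and PCGF3, a subunit of variant PRC1 (-0.53), with edgeR adjusted p between 0.42 and 0.567. In d3 against Mock they were PCGF2 (1.01, edgeR adjusted p = 0.104) and BCOR, a partner of PCGF1 (0.80, edgeR adjusted p = 0.118), and in d28 against Mock LCOR (0.61, edgeR adjusted p = 0.0602). PHF1 had a log2 fold change of 0.83 in d28 against d0 (edgeR adjusted p = 0.0817), and PHF19, which like PHF1 is an accessory subunit of PRC2, one of -0.38 in d28 against d3 (edgeR adjusted p = 0.371).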

How the data were processed

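The authors deposited raw counts per gene entry for the 12 libraries in a single table, not normalised. The submitters' processing notes name bcl2fastq, Bowtie2, HTSeq and GRCh38, with no versions. How reads were shifted for the transposase, whether duplicates were removed and which part of a gene was counted is not given in the sources used here. The labels mention RNA purification, but the libraries were taken as ATAC-Seq. Groups and replicate numbers came from the sample titles.

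The 9 members and all gene lists were chosen with earlier results of these data known. The test covered 27579 genes, those whose mean normalised count exceeded 2 in 1 group or more. The counts were fitted in R 4.3.3 with edgeR 4.0.16 (TMM factors, quasi-likelihood F test, all 4 groups in 1 fit) and adjusted after Benjamini-Hochberg over all tested genes at 0.05. Normalised read counts are counts scaled to the mean effective library size. For paralog ratios of counts plus 0.5, exact permutation tests were used, two-sided (scipy 1.17.1, adjusted over 18). Neighbours were ordered by RefSeq positions, known for 20733 tested genes. The alternatives comprised RLE factors, DESeq2 1.42.0, library sizes only, no mitochondrially encoded genes, filterByExpr, no filter, fits of 2 groups, a replicate block and fits without 1 library. TMM factors taken before the filter were added after seeing the data.

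The named genes are the 9 members, KMT2A and AFF1, further Polycomb genes called or among the 3 smallest p-values of a comparison, entries that copy or overlap a member, and the 3 genes most like a called member. RNF2, CBX6, KDM6A and LINC01977 are named beside them for comparison. AFF1 was not called in any comparison, and EZHIP had no row in the table used. Total counts from 353430 to 3539937 limit the precision. The fitted SEs of the members lay little above counting error. For BMI1 in d28 against Mock the fitted SE was 0.267, and counting error alone gave 0.256. Yet BMI1 in Mock had a mean of 25.0 normalised read counts with an SD of 12.0. The intervals and edgeR p-values thus mostly reflect counting error. They need not cover a gene's own spread between the 3 samples of a group, which the study calls biological replicates. Python 3.11.15 and matplotlib 3.10.9 were used for figures.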

Additional observations from a re-analysis of the deposited data

How the results depend on the processing

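Over 15 alternatives the count of members called stayed the same in d0 and in d3 against Mock (0 each), and in d3 against d0 it fell from 1 to 0 with DESeq2 and ranged from 0 to 1 when 1 library was left out, the 0 coming without d0 replicate 2. With library sizes only, 9 members were called in d28 against Mock, 4 in d28 against d0 and 9 in d28 against d3, all lower in d28, where the median over all tested genes shifted to log2 values of -1.34, -0.88 and -0.98. The share of all tested genes called under this setting is not given here, so these counts are not read as a result about the members. Of 804 alternative values of the members, 64 had the opposite sign, 23 of them with library sizes only and 33 with 1 library left out. With library sizes only, EZH2 in d3 against d0 was at 0.019, and EZH1, CBX7 and CBX8 in d28 against d0 were at -0.14, -0.23 and -0.42. EZH2 in d3 against d0 ranged from -0.28 to 0.12 when 1 library was left out, the latter without d3 replicate 2. Under all other alternatives the median over all tested genes lay between -0.03 and 0.16 (log2), the latter with no filter in d28 against d0.

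Of the 41 other Polycomb genes, the count called in d28 against Mock (2) was 0 with DESeq2, 1 with RLE factors and 36 with library sizes only. In d3 against d0 (1) it was 0 with DESeq2, with library sizes only and with no filter. In d3 against Mock (1) it was 2 with TMM factors from before the filter. With library sizes only it was 2 in d0 against Mock, 27 in d28 against d0 and 36 in d28 against d3, and with filterByExpr 1 in d28 against d3. When 1 library was left out, it ranged from 0 to 1 in d3 against Mock and in d3 against d0, and from 0 to 2 in d28 against Mock and in d28 against d0. With library sizes only, MGA and ASXL3 in d28 against Mock were at -0.64 and -0.49, and RBBP4 and MGA in d28 against d0 at -0.16 and -0.13. The cause of these changes was not tested, apart from the shift of all genes given above. For the counts with library sizes only, the share of all tested genes called is not given here. They are not read as a result about these genes.

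The replicate numbers are shared by all groups, but deviations of same-numbered libraries correlated with a mean between -0.073 and 0.035 per comparison, so the numbers were not taken to pair the samples. With the replicate block, CBX8 in d3 against d0 was at 0.83 with an adjusted p of 0.0112, and the counts of members and of other Polycomb genes called were the same in all 6 comparisons. The paralog ratios moved by less than 1 SD with a pseudocount of 1. They also moved by less than 1 SD without 1 library. In groups this small, leaving out 1 library cannot shift a mean by 1 SD, so that alternative could not test the ratios. With 5 neighbours on each side, the medians around members moved by up to 0.27 (log2). Levels per kb of exon were not run. Low counts, 2 to 89 per library, limit what the members can show.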
